A study of Mus musculus with 13 samples.

Results

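The genes described here encode nuclear subunits of the mitochondrial oxidative phosphorylation complexes, together with Ppargc1a and Cycs, in SM1 mouse melanomas treated with BRAF and MEK inhibitors after adoptive cell transfer. They were chosen by symbol alone, as the Ndufa, Ndufb, Ndufc, Ndufs and Ndufv genes of complex I, Sdha to Sdhd of complex II, the Uqcr genes of complex III, the numbered Cox4 to Cox8 genes of complex IV and the Atp5 genes of ATP synthase. Of 18193 gene symbols with a probe set of their own on the array, 83 met this rule. Of these, 81 were bright enough to be tested, and Cox7b2 and Ndufb4 were not. The tested genes comprised 34 of complex I, 4 of complex II, 8 of complex III, 16 of complex IV and 17 of ATP synthase, besides Ppargc1a and Cycs. A further 7 matching symbols, Ndufs6 and Ndufa11 among them, share their probe sets with other genes and were not measured on their own. Subunits whose symbols do not match the rule are left out, such as Ndufab1 of complex I, which was read with the assembly genes instead. Ndufa4 was counted in complex I by its name, although its protein is known as a component of complex IV. The complexes also hold subunits encoded in mitochondrial DNA, of which 0 carried a symbol in the probe table, so only the nuclear side was followed.

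SM1 is a transplantable melanoma with mutant BRAF, grown here in C57BL/6 mice, and RNA was measured from whole tumours. All mice received splenocytes by adoptive cell transfer (ACT). These came from pmel-1 mice, whose transgenic T cell receptor recognises the melanocyte protein gp100, or, for the control recipients, from C57BL/6 mice, a transfer that the sample titles call Mock. Control recipients received vehicle (2 arrays) or the BRAF inhibitor dabrafenib together with the MEK inhibitor trametinib (2 arrays). Pmel-1 recipients received vehicle (2 arrays), dabrafenib (2 arrays), trametinib (2 arrays) or both drugs, called the combination below (3 arrays). SM1 is 1 tumour line, the labels give no dose, time, age or batch, and they do not say whether replicate tumours came from separate animals. The p-values therefore measure only how these samples spread, which may be technical.

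Oxidative phosphorylation passes electrons from NADH and succinate through complexes I to IV to oxygen and uses the resulting proton gradient to make ATP in ATP synthase. PGC-1alpha, the product of Ppargc1a, is a coactivator that joins nuclear receptors such as ERR-alpha and factors such as NRF1 at genes of mitochondria and fatty acid oxidation. In melanocytes Ppargc1a is a known target of MITF, the lineage transcription factor, and BRAF inhibition is known to raise MITF activity in melanoma.

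Values are log2 intensities per probe set, so that a difference of 1 is a 2-fold change, and "rose" or "fell" is written of genes with a Benjamini-Hochberg adjusted p under 0.05 in the limma fit over 13785 genes. In melanomas the subunit genes were bright: 65 of the 83 had a mean of at least 11, where the highest value on any array lay between 14.94 and 15.06, and very bright probe sets can understate changes. Correlations between arrays of 1 group were 0.983 to 0.994. The log2 ratio of 3′ to 5′ signal, averaged over the array's controls for β-actin and Gapdh, rises as RNA is degraded. It differed along the groups and stood at 1.08 ± 0.38 (SD, n = 7) in the drug-treated pmel-1 tumours and 0.26 ± 0.09 (SD, n = 6) in all other tumours. The white fat marker Adipoq stood at 10.32 in dabrafenib replicate 2, 9.30 in trametinib replicate 1, 10.05 in pmel-1 combination replicate 2 and 7.54 in pmel-1 combination replicate 3, against 4.75 to 5.97 on the other 9 arrays. Fabp4, from the same marker list, was also high without drug, at 10.79 and 8.51 in control and 10.26 and 10.44 in pmel-1 vehicle tumours, and differed by −1.15 ± 0.88 in the pooled comparison of the combination with vehicle (adjusted p = 0.3020). The muscle marker Acta1 stood at 9.90 in control vehicle replicate 3 and between 5.51 and 6.61 elsewhere. Of 10 melanocyte markers, Dct, Mlana, Sox10, Tyr and Pmel read at least 12.34 in all tumours. Gpr143 read 6.78 to 7.89 in vehicle and 11.10 to 11.70 in treated tumours, and Tyrp1 was low throughout, at 4.87 to 5.21 in vehicle tumours, under the filter level of 5.79, and 5.44 to 6.38 in treated ones. In bulk tumours, fewer cells of a type and less RNA per cell cannot be told apart.

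Ppargc1a rose most among the 81 genes in the comparison of the combination with vehicle pooled over control and pmel-1 recipients (the pooled comparison), and the plot of levels by group shows its values. In control recipients it read 8.16 and 7.80 with vehicle and 10.49 and 10.26 with the combination. In pmel-1 recipients it read 8.77 and 8.08 with vehicle, 10.06 and 10.05 with dabrafenib, 10.14 and 9.53 with trametinib, and 10.28, 9.97 and 10.41 with the combination. Each of the 9 drug-treated tumours lay above each of the 4 vehicle tumours. The rise with the combination was 2.40 ± 0.25 in control recipients (log2 change ± SE, 5.27-fold, adjusted p = 4.70e-05) and 1.80 ± 0.23 in pmel-1 recipients (3.47-fold, adjusted p = 1.10e-04). It was 1.63 ± 0.25 with dabrafenib alone (3.1-fold, adjusted p = 4.87e-04) and 1.41 ± 0.25 with trametinib alone (2.66-fold, adjusted p = 0.0012). The difference between the rises in the 2 kinds of recipient, −0.60 ± 0.34, did not pass the test (adjusted p = 0.4126). All 5 probe sets of Ppargc1a rose in value in the pooled comparison, by 1.49 to 2.10, but in pmel-1 recipients they spanned 0.79 to 1.80 with the combination, 0.78 to 1.67 with dabrafenib and 0.51 to 1.41 with trametinib, so that the fold values above come from a probe set at or near the top of each range. The call held under all 24 alternative settings in each of these comparisons, and with the combination the change was at least 1.33 in pmel-1 and 2.22 in control recipients. Mitf itself read 12.91 to 13.04 in the 4 vehicle tumours and 13.36 to 13.66 in the 9 treated ones, and rose by 0.58 ± 0.07 in the pooled comparison (adjusted p = 2.53e-05).

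**Figure D1:**
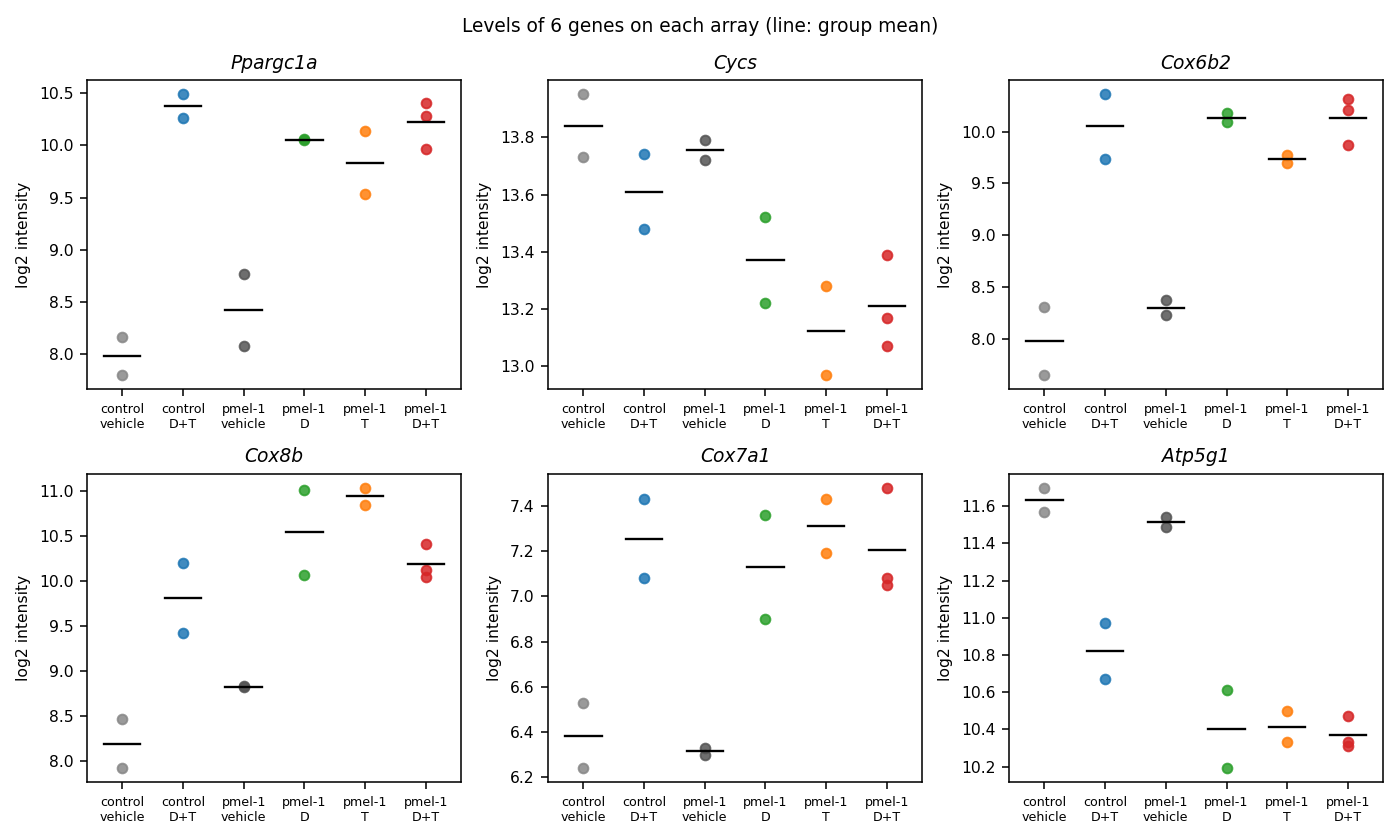
Log2 intensity (vertical axis) of Ppargc1a, Cycs, Cox6b2, Cox8b, Cox7a1 and Atp5g1 on each array, by group (horizontal axis; D dabrafenib, T trametinib, points arrays, lines group means). Ppargc1a and the 3 Cox genes are higher in every drug-treated tumour than in every vehicle tumour, and Atp5g1 is lower in every one. Cycs, on the probe set plotted, overlaps between treated and untreated control recipients, while other bright probe sets of Cycs do not.

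Because Ppargc1a is a known MITF target, the promoter that the RefSeq table gives for it is shown, 250 bases before to 50 after the start (RefSeq, GRCm38.p6, chr5:51567676-51567975, minus strand, printed 5′ to 3′ along the gene). Capitals mark the 1 match to the M-box TCATGTG, the MITF recognition sequence, which lies on the opposite strand, printed as CACATGA, with its first base 160 bases before the start. Ppargc1a is known to have several start sites. The 1 in the table lies inside the annotated gene, which runs from 51454249 to 52115853 on the minus strand, and which start the tumours used was not measured.
Ppargc1a: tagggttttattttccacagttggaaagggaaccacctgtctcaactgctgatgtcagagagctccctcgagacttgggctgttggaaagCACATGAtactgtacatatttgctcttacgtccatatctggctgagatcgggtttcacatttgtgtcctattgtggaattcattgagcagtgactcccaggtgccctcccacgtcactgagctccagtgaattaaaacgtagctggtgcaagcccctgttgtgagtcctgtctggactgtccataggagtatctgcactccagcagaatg
Promoters were found in the table for 68 of the 83 genes, and Ppargc1a was the only 1 of them with this M-box (1.47%), against 4.31% of 27025 genes with a promoter. Both strands were searched, and overlaps between motifs were counted for each motif. A match in this window is a description and not a measured binding site. CACGTG, the E-box, was in 6 of the 68 (8.82%) against 8.09% of all genes. CCGGAAG, the ETS site that the NRF2/GABP factor binds, was in 17 (25%) against 9.93%. CGCATGCG, the NRF1 core, was in 9 (13.2%) against 2.07%. TGACGTCA, the cAMP response element, was in 4 (5.88%) against 2.03%, and TCAAGGTCA, the ERR element, in 2 (2.94%) against 0.466%.

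Most subunit genes did not rise with Ppargc1a. In the pooled comparison, 12 of 81 rose and 11 fell, or 28.4%, where 52.6% of all genes tested changed. The rising members made up 14.8% against 28.1% of all genes, and the falling members 13.6% against 24.5%. Their median change was −0.04, beside 0.01 over all genes. The 95% interval of the change excluded a 2-fold rise for 77 of the 81. Of the 12 risers, 3 rose at least 2-fold (4.93% of all genes did), namely Ppargc1a, Cox6b2 and Cox8b. The split moved with scaling, to 10 higher and 16 lower after centring each array on its median and 16 higher and 9 lower after a second quantile normalization. With that 3′ over 5′ ratio added as covariate, 11 were higher and 4 lower.

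Within control recipients, whose treated and untreated tumours all had a 3′ over 5′ ratio of 0.42 or less, 9 genes rose and 2 fell with the combination (13.6%, against 35.4% of all genes, 18.7% higher and 16.7% lower). Without control vehicle replicate 3, 6 were called. Within pmel-1 recipients 9 rose and 19 fell (34.6%, against 45.6% of all genes, 24.3% higher and 21.2% lower). Without pmel-1 vehicle replicate 1 or 2 that total was 12 each time, and 18 without combination replicate 2. With the 3′ over 5′ covariate it was 5, namely Ppargc1a, Cox6b2 and Cox8b higher and Atp5g1 and Ndufa12 lower. In pmel-1 recipients the ratio was 0.22 and 0.18 with vehicle and 0.60 to 1.65 with drug. The 2 do not overlap, so ratio and drug cannot be told apart there. A pmel-1 call lost with the covariate, here and below, cannot be assigned to either. The 2 comparisons share no arrays. Of the 9 risers in each, 7 were the same genes (77.8% of each list), Ppargc1a, Cox6b2, Cox7a1, Cox8b, Ndufa3, Ndufa13 and Uqcrh, and both genes that fell in control recipients, Atp5g1 and Ndufa12, were among the 19 that fell in pmel-1 recipients (10.5% of those). Over all genes, 1953 rose in both, which is 75.9% of the 2572 risers in control and 58.2% of the 3356 in pmel-1 recipients, and 1808 fell in both, 78.5% and 61.8% of those that fell. In 0 cases were the calls opposite.

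Each drug alone was measured in pmel-1 recipients, against the same 2 vehicle arrays as the combination. With dabrafenib 8 rose and 16 fell (29.6%, against 41.4% of all genes, 21.8% higher and 19.6% lower). With trametinib 7 rose and 12 fell (23.5%, against 38.6% of all genes, 19.5% higher and 19.1% lower). These counts rested on few arrays. The dabrafenib total was 7 without vehicle replicate 1, 11 without vehicle replicate 2, 5 without dabrafenib replicate 2 and 4 with the 3′ over 5′ covariate. The trametinib total was 9 without vehicle replicate 1 or 2, 8 without trametinib replicate 1 and 6 with the covariate. Without the 3 arrays highest in Adipoq the totals were 5 and 9. In all 4 comparisons of a drug treatment with vehicle, 4 genes rose (Ppargc1a, Cox6b2, Cox7a1 and Cox8b), 2 fell (Atp5g1 and Ndufa12) and 48 were called in none. These make 4.94%, 2.47% and 59.3% of the members, where 11.7% of all genes rose in all 4, 10.9% fell in all 4 and 42% were called in none. Of the 4 comparisons, 3 share the 2 pmel-1 vehicle arrays.

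**Figure D2:**
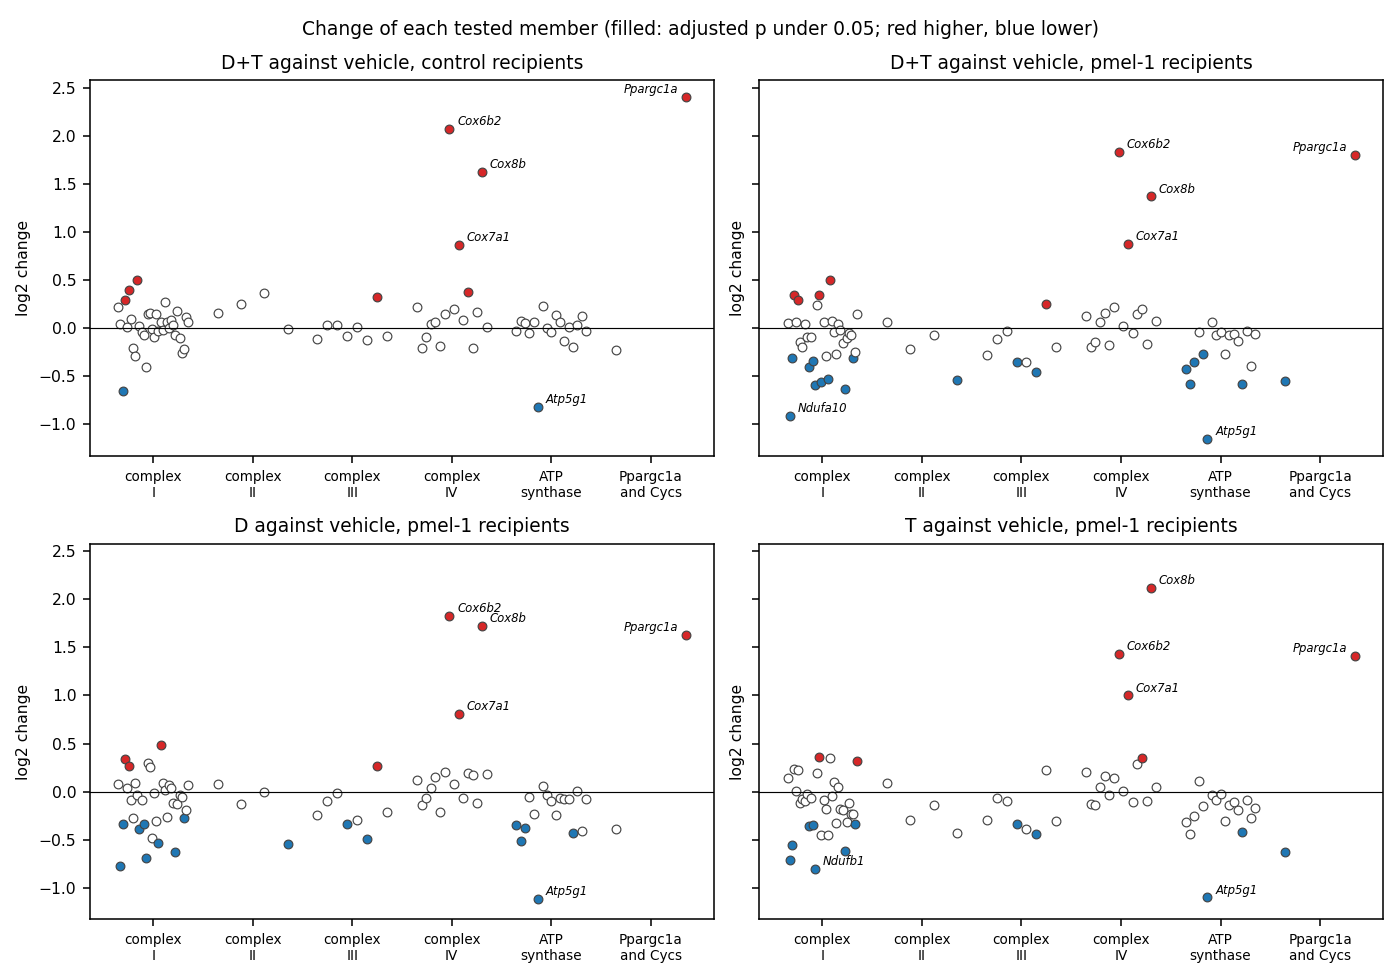
Log2 change of each of the 81 tested genes (points), by complex, in the 4 comparisons of a drug treatment (D dabrafenib, T trametinib) with vehicle; filled points have an adjusted p under 0.05. Most points lie within 0.5 of 0, while Ppargc1a, Cox6b2, Cox8b and Cox7a1 stand above the rest in each panel and Atp5g1 stands below in each.

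Complex IV, cytochrome c oxidase, held the 3 largest subunit rises. In the pooled comparison 6 of its 16 tested genes rose (37.5%, against 28.1% of all genes) and 0 fell, against 24.5%. With the combination 4 rose in control recipients (25%, against 18.7%) and 3 in pmel-1 recipients (18.8%, against 24.3%). With dabrafenib 3 rose (18.8%, against 21.8%) and with trametinib 4 (25%, against 19.5%). The largest rises were in tissue-restricted isoforms. Cox6b2, known as the testis form of subunit VIb, read 8.31 and 7.65 in control vehicle tumours and 10.36 and 9.74 with the combination. In pmel-1 recipients Cox6b2 read 8.37 and 8.23 with vehicle, 10.09 and 10.18 with dabrafenib, 9.70 and 9.77 with trametinib, and 9.87, 10.21 and 10.31 with the combination. All 9 treated tumours lay above all 4 vehicle tumours. Cox6b2 rose by 2.07 ± 0.23 in control recipients (4.21-fold, adjusted p = 7.32e-05) and by 1.83 ± 0.21 in pmel-1 recipients (3.55-fold, adjusted p = 6.55e-05). It rose by 1.83 ± 0.23 with dabrafenib (adjusted p = 1.55e-04) and by 1.43 ± 0.23 with trametinib (adjusted p = 7.53e-04).

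Cox8b, the subunit VIII form of heart, skeletal muscle and brown fat, read 8.47 and 7.92 in control vehicle tumours and 10.20 and 9.43 with the combination. In pmel-1 recipients Cox8b read 8.84 and 8.82 with vehicle, 11.02 and 10.07 with dabrafenib, 10.85 and 11.04 with trametinib, and 10.13, 10.05 and 10.41 with the combination. Treated and vehicle tumours did not overlap, and the trametinib tumours were among the highest. The rise was 1.62 ± 0.31 in control recipients (3.08-fold, adjusted p = 0.0021), 1.37 ± 0.29 in pmel-1 recipients (2.58-fold, adjusted p = 0.0024), 1.72 ± 0.31 with dabrafenib (3.28-fold, adjusted p = 0.0013) and 2.12 ± 0.31 with trametinib (4.33-fold, adjusted p = 4.05e-04). Cox7a1, the heart and muscle form of subunit VIIa, was dim, at 6.24 to 6.53 in the 4 vehicle tumours and 6.90 to 7.48 in the 9 treated ones, close to the filter level of 5.79. It rose by 0.87 ± 0.20 in control recipients (adjusted p = 0.0056) and 0.88 ± 0.18 in pmel-1 recipients (adjusted p = 0.0022). The Cox7a1 call in control recipients was lost without control vehicle replicate 3 (0.72) or control combination replicate 2 (0.70). The dabrafenib change, 0.81 ± 0.20 (adjusted p = 0.0072), did not pass without dabrafenib replicate 2 (0.58), without the 3 Adipoq-high arrays (0.58) or with the 3′ over 5′ covariate (0.64), and the pmel-1 combination change did not pass with that covariate (0.71).

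Markers of skeletal muscle, brown fat and white fat were read beside these isoforms. No list of testis or heart markers was read. Of 10 skeletal muscle markers 8 were tested, and 1 rose in the pooled comparison (12.5%, against 28.1% of all genes). This was Atp2a1 (0.84 ± 0.23, adjusted p = 0.0089). The muscle marker mean was 5.93 to 6.95 in vehicle and 5.97 to 6.06 in treated tumours, with the highest value in control vehicle replicate 3. The fast myosin gene Myh4 stayed between 4.49 and 4.82 on all arrays. Of 5 brown fat markers 2 were tested and 0 changed. Ucp1, the defining gene of brown fat, read 5.33 to 5.67 except for 6.16 in dabrafenib replicate 2, where the brown fat gene Cidea also read 7.41 against 5.05 to 5.67 elsewhere. Of the white fat markers 4 were tested and 0 changed. Atp2a1 read 5.99 and 7.18 in control and 6.40 and 6.41 in pmel-1 vehicle tumours, 6.97 and 7.15 in control combination tumours and 7.28 to 8.12 in treated pmel-1 tumours. The part of Atp2a1-expressing or fat cells in the Cox8b and Cox7a1 rises was not tested.

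The widely expressed partners of these isoforms moved little. Cox6b1, the somatic form of subunit VIb, rose by 0.18 ± 0.06 in the pooled comparison (1.14-fold, adjusted p = 0.0281), and Cox4i1, the common form of subunit IV, rose by 0.17 ± 0.06 (1.13-fold, adjusted p = 0.0318). Cox7a2l, which helps to join complexes III and IV into supercomplexes, rose by 0.26 ± 0.08 (adjusted p = 0.0158), although its treated and vehicle values overlapped. Cox8a and Cox7a2, the common forms of subunits VIII and VIIa, differed by 0.00 and 0.02 and did not pass. Nor did Cox6a1 (0.12), the hypoxia-linked Cox4i2 (−0.20), the muscle form Cox6a2 (−0.18) or the testis form Cox8c (0.04).

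Complex I, the entry point for NADH, divided into small rises and falls. In the pooled comparison 4 of 34 rose with the combination (11.8%, against 28.1% of all genes) and 6 fell (17.6%, against 24.5%). The changes of these 34 genes ran from −0.50 to 0.35. Ndufab1, a complex I subunit outside the symbol rule, fell further (−0.70 ± 0.10, adjusted p = 1.13e-04). The rises were in accessory subunits of the membrane arm: Ndufa3 by 0.35 ± 0.07 (adjusted p = 0.0011, but 0.12 and not passing when all its probe sets were averaged), Ndufa13 by 0.32 ± 0.06 (adjusted p = 9.10e-04), Ndufb7 by 0.29 ± 0.09 (adjusted p = 0.0234) and Ndufb11 by 0.26 ± 0.07 (adjusted p = 0.0098). The falls included Ndufb1 (−0.50 ± 0.13, adjusted p = 0.0060) and Ndufv1, the NADH-binding subunit (−0.26 ± 0.07, adjusted p = 0.0061). Ndufa12, an accessory subunit of the peripheral arm, fell in each drug comparison. It read 12.26 and 12.24 in control vehicle tumours against 11.72 and 11.48 with the combination, and 12.06 and 12.06 in pmel-1 vehicle tumours against 11.80, 11.78 and 11.68. Treated and vehicle tumours did not overlap. Ndufa12 fell by 0.65 in control recipients (SE 0.12, adjusted p = 0.0013) and by 0.31 in pmel-1 recipients (SE 0.11, adjusted p = 0.0312). The pmel-1 combination call held under 17 of 24 alternatives and the dabrafenib call, −0.34 ± 0.12, under 14. Other probe sets of Ndufa12 above the filter gave −0.73 and −0.40 in pmel-1 and −0.48 and −0.62 in control recipients with the combination. With dabrafenib they gave −0.69 and −0.42, so the size of the fall in each kind of recipient depends on the probe set.

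Other complex I falls were seen in pmel-1 recipients, where 9 of 34 fell with the combination (26.5%, against 21.2% of all genes). With dabrafenib 8 fell (23.5%, against 19.6%) and with trametinib 7 (20.6%, against 19.1%). In control recipients 1 fell with the combination (2.94%, against 16.7%). The difference between recipients did not pass the interaction test for any member. Ndufa10, an accessory subunit, read 12.28 and 12.24 with vehicle and 11.31, 11.25 and 11.50 with the combination in pmel-1 recipients. In control recipients it read 12.01 and 12.11 with vehicle and 12.18 and 12.02 with the combination. The pmel-1 groups did not overlap and the control groups did. Ndufs4, an accessory subunit needed for a stable complex, showed the same layout, at 9.77 and 9.81 against 9.02, 9.16 and 9.31 in pmel-1 recipients and 9.90 and 9.75 against 9.93 and 9.58 in control recipients. In pmel-1 recipients Ndufa10 fell by 0.91 (SE 0.17, adjusted p = 0.0011) and Ndufs4 by 0.63 (SE 0.13, adjusted p = 0.0026). Neither was called there with the 3′ over 5′ covariate, and other probe sets of both genes did not fall in the pooled comparison (0.02 each at the highest).

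Complexes II and III changed in few genes. In complex II, which oxidises succinate, 0 of 4 genes changed in the pooled comparison, while Sdhd, a membrane anchor subunit, fell in pmel-1 recipients with the combination (−0.54 ± 0.15, adjusted p = 0.0113) and with dabrafenib (−0.54 ± 0.16, adjusted p = 0.0199). A dimmer probe set of Sdhd gave 0.03 and 0.01 there. In complex III 1 of 8 rose (12.5%, against 28.1% of all genes) and 2 fell (25%, against 24.5%) in the pooled comparison. Uqcrh, the hinge protein, read 12.62 to 12.75 in vehicle and 12.90 to 13.01 in treated tumours without overlap, a rise of 0.28 ± 0.06 (adjusted p = 0.0021). Uqcrfs1, the Rieske iron-sulfur subunit, fell by 0.29 (SE 0.11, adjusted p = 0.0373) and the core subunit Uqcrc1 by 0.21 (SE 0.08, adjusted p = 0.0390), each with overlapping values.

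ATP synthase genes did not rise in any comparison with vehicle: 0 of 17 rose. In the pooled comparison 2 fell with the combination (11.8%, against 24.5% of all genes). Atp5g1, 1 of 3 genes for the c subunit of the rotor ring, whose mature proteins are the same, fell in every tumour group given a drug. It read 11.57 and 11.70 in control vehicle tumours and 10.97 and 10.67 with the combination. In pmel-1 recipients Atp5g1 read 11.49 and 11.54 with vehicle, 10.61 and 10.19 with dabrafenib, 10.33 and 10.50 with trametinib, and 10.33, 10.31 and 10.47 with the combination. All treated tumours lay below all vehicle tumours. Atp5g1 was 1.76-fold lower with the combination in control recipients (−0.82 ± 0.15, adjusted p = 0.0016) and 2.21-fold lower in pmel-1 recipients (−1.15 ± 0.14, adjusted p = 7.54e-05). It was 2.17-fold lower with dabrafenib (adjusted p = 2.23e-04) and 2.14-fold lower with trametinib (adjusted p = 2.56e-04). A second probe set of Atp5g1, whose mean of 4.17 lies under the filter level of 5.79, went the other way, so that averaging both gave 0.02 in control recipients. The other c subunit genes were not called in the pooled comparison on the probe sets used, Atp5g2 at 0.15 and Atp5g3 at −0.03. A dimmer probe set of Atp5g2 (mean of 6.36, against 12.87) gave 0.58 there, with 0.19 in control and 0.96 in pmel-1 recipients. It gave 1.17 with dabrafenib and 0.61 with trametinib. Atp5g2 read 12.74 to 12.84 in vehicle and 12.73 to 13.07 in treated tumours, and Atp5g3 13.84 to 13.90 and 13.75 to 13.88.

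The promoters of the 3 c subunit genes are shown because these genes give the same mature protein and 1 of them, Atp5g1, was called. They are from RefSeq, GRCm38.p6, all on the minus strand, 250 bases before to 50 after the start. The windows are Atp5g1 chr11:96075582-96075881, Atp5g2 chr15:102670998-102671297 and Atp5g3 chr2:73911277-73911576. Capitals mark motif matches.
Atp5g1: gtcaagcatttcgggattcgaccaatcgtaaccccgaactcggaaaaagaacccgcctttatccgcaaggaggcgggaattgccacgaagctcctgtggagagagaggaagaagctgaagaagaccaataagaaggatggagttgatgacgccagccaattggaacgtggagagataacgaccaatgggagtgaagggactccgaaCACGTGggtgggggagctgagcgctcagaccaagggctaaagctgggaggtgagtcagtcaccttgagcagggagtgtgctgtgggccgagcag
Atp5g2: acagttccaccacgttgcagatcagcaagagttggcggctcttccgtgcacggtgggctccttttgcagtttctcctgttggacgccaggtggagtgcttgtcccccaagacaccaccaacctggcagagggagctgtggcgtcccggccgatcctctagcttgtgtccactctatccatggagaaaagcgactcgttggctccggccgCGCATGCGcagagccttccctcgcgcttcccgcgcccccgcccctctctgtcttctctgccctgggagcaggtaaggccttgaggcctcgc
Atp5g3: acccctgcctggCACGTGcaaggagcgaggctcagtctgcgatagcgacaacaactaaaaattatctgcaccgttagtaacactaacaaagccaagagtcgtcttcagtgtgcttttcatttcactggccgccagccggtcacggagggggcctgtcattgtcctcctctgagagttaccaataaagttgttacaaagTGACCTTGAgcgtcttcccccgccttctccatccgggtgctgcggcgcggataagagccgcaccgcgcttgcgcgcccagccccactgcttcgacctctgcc
Atp5g1 holds an E-box, CACGTG, 44 bases before the start. Atp5g2 holds the NRF1 core, CGCATGCG, 41 bases before it. Atp5g3 holds an E-box 238 bases before the start and, on the opposite strand, the ERR element, printed as TGACCTTGA, 52 bases before it. Over the 11 members that fell and have a promoter, 2 held the E-box (18.2%), and over the 44 that were not called 4 did (9.09%). Of the 11 that rose 0 did. The cAMP response element was in 3 (27.3%) of those that fell, 1 (2.27%) of those not called and 0 that rose. For the NRF1 core these were 2 (18.2%), 7 (15.9%) and 0, and for the ETS site 1 (9.09%), 13 (29.5%) and 3 (27.3%). No link between a motif and the changes was tested.

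In pmel-1 recipients 5 of 17 ATP synthase genes fell with dabrafenib (29.4%, against 19.6% of all genes) and 2 with trametinib (11.8%, against 19.1%). With the combination 6 fell there (35.3%, against 21.2%). They included catalytic-head genes: Atp5b, the beta subunit (−0.58 ± 0.17, adjusted p = 0.0159), Atp5a1, the alpha subunit (−0.42 ± 0.12, adjusted p = 0.0135), and Atp5c1, the gamma subunit (−0.35 ± 0.12, adjusted p = 0.0376). Other probe sets went the other way in that comparison, at 0.14 and 0.27 for Atp5a1 (means of 12.27 and 9.53, against 12.67 for the one used) and 0.29 for Atp5c1 (mean of 7.76, against 13.35), so the falls of these 2 genes rest on 1 probe set each. Atp5b has a single probe set. Atp5b read 13.15 and 13.14 with vehicle and 12.44, 12.45 and 12.83 with the combination, without overlap, while its control recipient groups overlapped. Atp5md, a small subunit linked to dimers of the enzyme, fell by 0.38 in the pooled comparison (SE 0.09, adjusted p = 0.0030). Of these 6 genes, Atp5g1 alone was called in pmel-1 recipients with the 3′ over 5′ covariate, where ratio and drug cannot be told apart.

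Cycs, the mobile electron carrier cytochrome c between complexes III and IV, did not rise with Ppargc1a. It read 13.95 and 13.73 in control vehicle tumours and 13.74 and 13.48 with the combination. In pmel-1 recipients Cycs read 13.72 and 13.79 with vehicle, 13.52 and 13.22 with dabrafenib, 13.28 and 12.97 with trametinib, and 13.07, 13.17 and 13.39 with the combination. On this probe set pmel-1 groups did not overlap with their vehicle group and control groups did. A second bright probe set (mean of 12.82) read 13.59 and 13.68 with vehicle and 13.19 and 12.91 with the combination in control recipients. Another (mean of 12.44) read 13.09 and 12.91 against 12.67 and 12.46 there, so both were without overlap. They changed by −0.59 and −0.44 in control and −1.16 and −0.69 in pmel-1 recipients. A dim probe set (mean of 6.59) gave −0.01 and 0.21. Cycs fell by 0.55 with the combination in pmel-1 recipients (SE 0.15, adjusted p = 0.0097) and by 0.63 with trametinib (SE 0.16, adjusted p = 0.0090). The differences in control recipients (−0.23, adjusted p = 0.3061) and with dabrafenib (−0.39, adjusted p = 0.0710) did not pass. In the pooled comparison the fall of 0.39, with changes of −0.88 to 0.10 over 4 probe sets, did not pass with the 3′ over 5′ covariate (−0.28, adjusted p = 0.1102). The pmel-1 combination call was lost with the covariate (−0.35) and without vehicle replicate 2 (−0.51), and the trametinib call was lost with the covariate (−0.47), without vehicle replicate 2 (−0.60) and without trametinib replicate 2 (−0.48).

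Averaged over its tested genes, the complexes moved little. Complex IV averaged 10.67 to 10.76 in the 4 vehicle tumours and 10.94 to 11.10 in the 9 treated ones. Cox6b2, Cox8b and Cox7a1 carry that gap: the other 13 genes, set apart after their values were seen, averaged 11.41 to 11.45 and 11.40 to 11.51, and their median change in the pooled comparison was 0.04. The ATP synthase mean was 12.78 to 12.80 with vehicle, 12.69 and 12.83 in the control combination tumours and 12.47 to 12.65 in the treated pmel-1 tumours. The complex I mean was 11.74 to 11.76 with vehicle, 11.69 and 11.84 in the control combination tumours and 11.59 to 11.69 in the treated pmel-1 tumours. For complexes I, III and ATP synthase the treated pmel-1 tumours lay below the vehicle tumours and the treated control tumours on both sides of them. The treated pmel-1 tumours were those with a 3′ over 5′ ratio of 0.60 to 1.65, against 0.18 to 0.42 in the others, and the part of that ratio in these means was not tested.

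**Figure D3:**
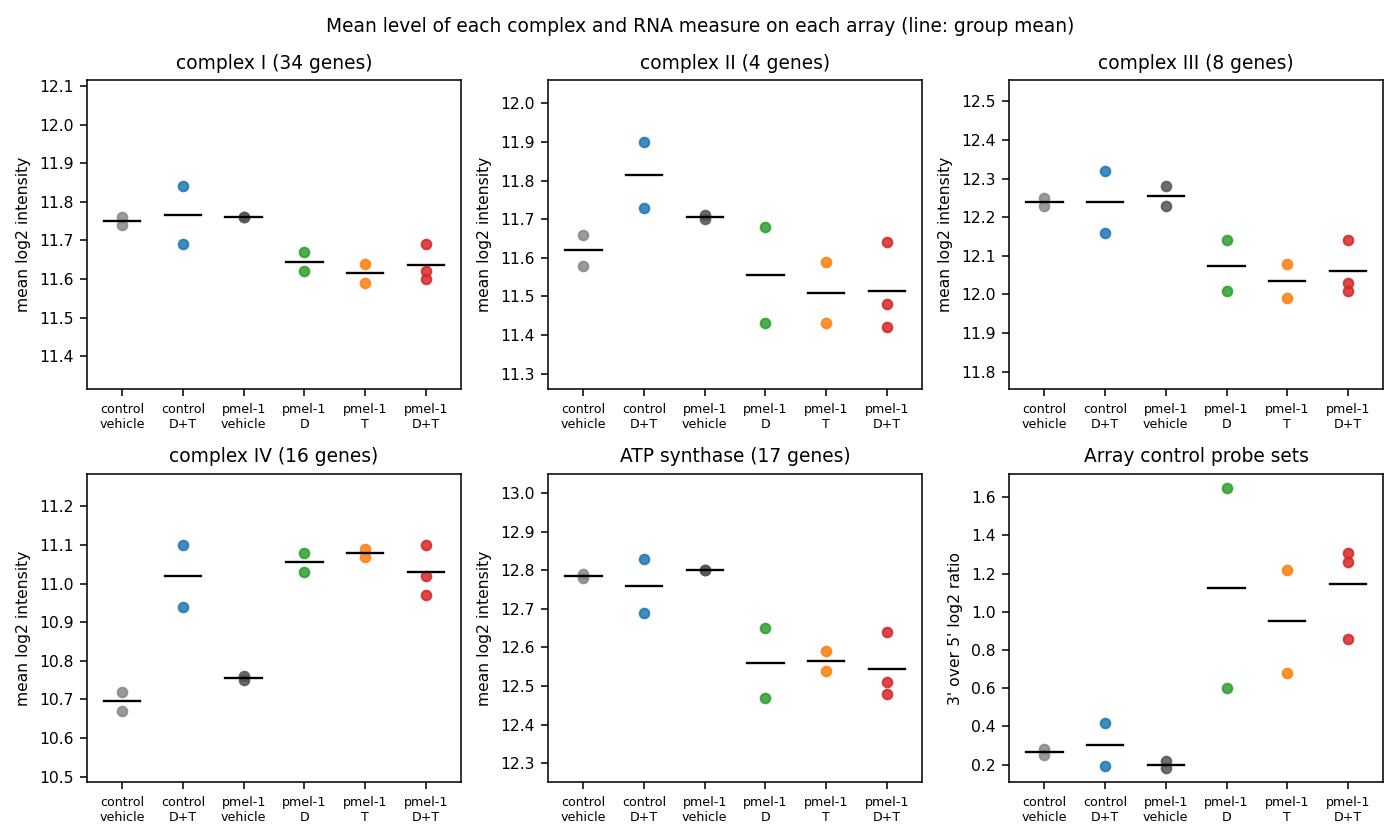
Mean log2 intensity over the tested genes of each complex (vertical axes, each spanning 0.8) and the 3′ over 5′ log2 ratio of control probe sets (last panel), on each array by group (points arrays, lines group means). Complex IV is higher in all treated tumours, but without Cox6b2, Cox8b and Cox7a1 its other 13 genes average 11.41 to 11.45 with vehicle and 11.40 to 11.51 with drug, while complexes I, III and ATP synthase are lower in treated pmel-1 tumours, which also have the highest 3′ over 5′ ratios.

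The drug treatments were not told apart by these genes. Between dabrafenib and trametinib 0 of 81 passed in limma (1 at an unadjusted p under 0.05, or 1.23%, against 11.8% of all genes), where 0.776% of all genes did. Between the combination and trametinib 0 passed (2 unadjusted), against 1.1% of all genes, and between the combination and dabrafenib 0 passed (0 unadjusted), against 0% of all genes. For Ppargc1a the interval of dabrafenib minus trametinib was −0.33 to 0.77, and that of the combination minus dabrafenib −0.34 to 0.67. Cox8b was 0.75 lower with the combination than with trametinib (interval −1.38 to −0.12), which did not pass after adjustment (adjusted p = 0.2711). Cox6b2 differed by 0.40 between dabrafenib and trametinib (interval −0.11 to 0.92). A missed threshold with 2 or 3 arrays a group does not show that the treatments act alike.

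The kind of transfer was read in vehicle tumours and in combination tumours. Among vehicle tumours 0 of 81 changed in limma (2 at an unadjusted p under 0.05), where 0% of all genes did, and Ppargc1a differed by 0.45 ± 0.25 (adjusted p = 0.4996). Among combination tumours 2 fell with pmel-1 transfer (2.47%, where 4.24% of all genes changed and 1.58% were lower), Ndufa10 (−0.74 ± 0.17, adjusted p = 0.0355) and Ndufs4 (−0.59 ± 0.13, adjusted p = 0.0355), with 27 at an unadjusted p under 0.05 (33.3%, against 24.2% of all genes). That total was 0 without control combination replicate 2, pmel-1 vehicle replicate 1 or 2, or pmel-1 combination replicate 1 or 2, and 1 without either control vehicle array, without control combination replicate 3 or without the 3 Adipoq-high arrays. It was 9 without pmel-1 combination replicate 3, 11 without either dabrafenib array, and 0 with the 3′ over 5′ covariate. The pmel-1 and control combination tumours differed in that ratio, as given above. For the interaction of transfer and combination 0 of 81 passed, against 0.283% of all genes, and 19 were under an unadjusted p of 0.05 (23.5%, against 16% of all genes).

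Genes that build and supply the complexes were followed as well, and many of them fell. The lists that follow were read in the pooled comparison of the combination with vehicle, where the median of all genes was 0.01. Of 76 genes of the mitochondrial ribosome, which translates the mitochondrially encoded subunits, 61 fell and 3 rose (median −0.47), with Mrps28 at −1.22. Of 21 genes of protein import into mitochondria 12 fell and 1 rose (median −0.43), including Tomm40, the outer membrane pore (−1.26 ± 0.12, adjusted p = 8.60e-06), Timm8a1 (−1.40 ± 0.14, adjusted p = 1.06e-05) and Timm13 (−0.79 ± 0.07, adjusted p = 3.44e-06), both chaperones of the space between the membranes. Of 37 assembly factors and related genes 17 fell and 4 rose (median −0.24), with falls in the complex I factors Ndufaf2 (−0.83 ± 0.09, adjusted p = 1.21e-05) and Ndufaf4 (−0.72 ± 0.07, adjusted p = 1.33e-05) and the complex IV factor Cox16 (−0.77 ± 0.09, adjusted p = 2.59e-05). The 17 include Ndufab1 (−0.70 ± 0.10), which is a complex I subunit outside the symbol rule, so this list does not hold assembly factors alone. The falls made up 80.3% of the ribosomal, 57.1% of the import and 45.9% of the assembly genes, against 24.5% of all genes. Over the 24 alternatives 50 to 63 ribosomal, 9 to 14 import and 13 to 18 assembly genes fell. In control recipients, with low 3′ over 5′ ratios, 45 of 76, 10 of 21 and 13 of 37 fell. These were 59.2%, 47.6% and 35.1%, against 16.7% of all genes, and the counts were 49, 11 and 13 with the 3′ over 5′ covariate. In pmel-1 recipients 54, 12 and 15 fell (71.1%, 57.1% and 40.5%, against 21.2% of all genes), and 27, 6 and 4 with the covariate.

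Fuel pathways moved in different directions. In fatty acid oxidation 9 of 16 genes rose and 0 fell (median 0.36), among them Acadvl, the very long chain acyl-CoA dehydrogenase (0.69 ± 0.09, adjusted p = 7.90e-05), Cpt2, the inner carnitine transferase (0.63 ± 0.09, adjusted p = 1.07e-04), and Hadhb, of the trifunctional protein (0.49 ± 0.07, adjusted p = 1.20e-04). Cpt1a, the outer carnitine transferase, differed by 0.39 ± 0.16 and did not pass (adjusted p = 0.0553). The 9 risers were 56.2% of the list, against 28.1% of all genes. Over the alternatives 8 to 10 rose. In control recipients 9 rose (56.2%, against 18.7% of all genes), and 11 with the 3′ over 5′ covariate. In pmel-1 recipients 5 rose (31.2%, against 24.3%), and 1 with the covariate. In glycolysis 12 of 13 genes fell and 0 rose (median −0.81), including the glucose transporter Slc2a1 (−1.80 ± 0.22, adjusted p = 4.57e-05), hexokinase Hk2 (−1.78 ± 0.19, adjusted p = 1.60e-05) and lactate dehydrogenase Ldha (−1.13 ± 0.22, adjusted p = 0.0011). These falls made up 92.3% of the list, against 24.5% of all genes. They numbered 7 with the 3′ over 5′ covariate and 7 without control combination replicate 3. Within control recipients 6 fell (46.2%, against 16.7% of all genes), and 11 with the covariate. Within pmel-1 recipients 7 fell (53.8%, against 21.2%), and 1 with the covariate. In the TCA cycle 8 of 17 fell (47.1%, against 24.5% of all genes) and 1 rose (5.88%, against 28.1%), with a median of −0.18. Ogdh, of the oxoglutarate dehydrogenase complex, rose (0.58 ± 0.07, adjusted p = 5.90e-05), and Suclg1, of succinyl-CoA ligase, fell (−0.59 ± 0.15, adjusted p = 0.0053). The TCA falls numbered 4 with the covariate, 2 without control combination replicate 3, 3 without pmel-1 vehicle replicate 1 or 2, 4 without control vehicle replicate 1 and 5 without control vehicle replicate 3. Within control recipients 1 TCA gene fell (5.88%, against 16.7% of all genes). Within pmel-1 recipients 7 did (41.2%, against 21.2%), and 0 with the covariate.

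Among 21 regulators of mitochondrial genes 3 rose (14.3%, against 28.1% of all genes) and 4 fell (19%, against 24.5%), with a median of −0.08. Pprc1, a coactivator of the same family as Ppargc1a, read 10.18, 10.16, 9.46 and 9.52 in vehicle tumours and 8.23 to 9.24 in treated ones. It fell by 1.12 (SE 0.17, adjusted p = 2.00e-04), opposite to Ppargc1a, and Ppargc1b, the third member of the family, differed by −0.09 ± 0.09 (adjusted p = 0.4486). Tfam, a factor that packages mitochondrial DNA and helps to start its transcription, read 9.82 to 10.14 in vehicle tumours and 8.90 to 9.57 in treated ones, a fall of 0.63 (SE 0.09, adjusted p = 1.43e-04). Polg, the mitochondrial DNA polymerase, fell as well (adjusted p = 3.07e-04). The partners Esrra (0.28 ± 0.09, adjusted p = 0.0279), Esrrg (0.32 ± 0.11, adjusted p = 0.0236) and Ppara (0.80 ± 0.18, adjusted p = 0.0035) rose, and over the alternatives 1 to 4 regulators rose and 4 to 7 fell. Without control vehicle replicate 3 or control combination replicate 2, 1 rose. Esrrg was called in control recipients, where it read 6.71 and 6.69 with vehicle and 7.34 and 7.33 with the combination (0.63 ± 0.16, adjusted p = 0.0085). In pmel-1 recipients it read 6.90 and 6.78 against 6.96, 6.86 and 6.72 (0.01 ± 0.14, adjusted p = 0.9673), and the difference between recipients, −0.62 ± 0.21, did not pass the interaction test (adjusted p = 0.2027). Of the 21 regulators 3 rose and 6 fell in control recipients (14.3% and 28.6%, against 18.7% and 16.7% of all genes). In pmel-1 recipients 1 (Tfb1m, a mitochondrial ribosomal RNA methyltransferase) rose and 5 fell (4.76% and 23.8%, against 24.3% and 21.2%). With the 3′ over 5′ covariate these counts in pmel-1 recipients were 0 and 1. Of 8 mitochondrial antioxidant and carrier genes 1 rose and 3 fell (12.5% and 37.5%, against 28.1% and 24.5% of all genes). Sod2, the matrix superoxide dismutase, differed by −0.04 ± 0.08.

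**Figure D4:**
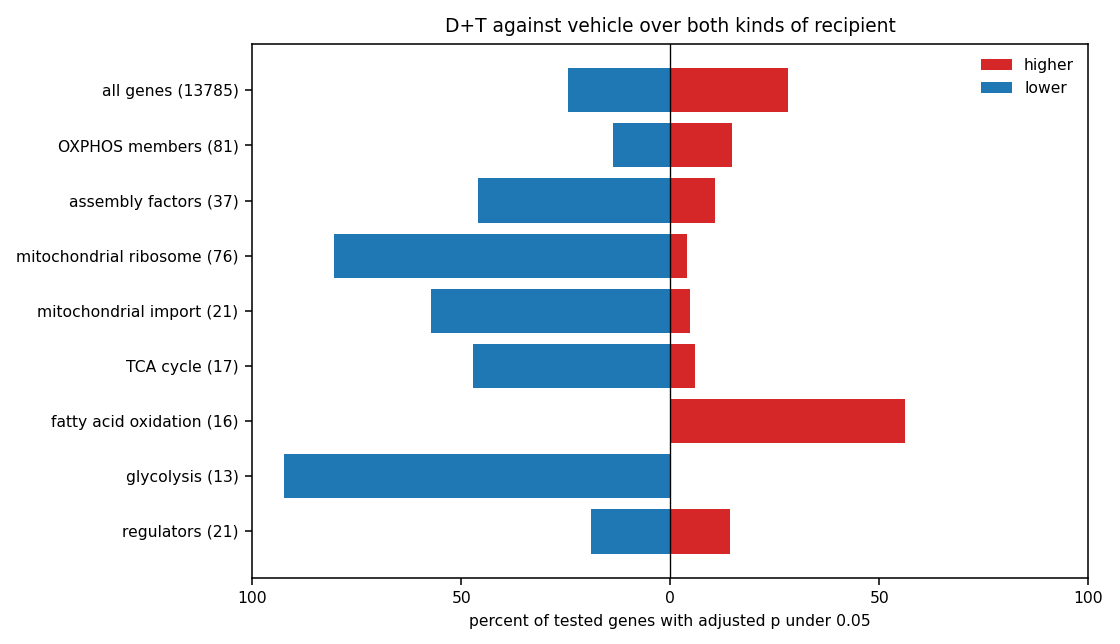
Percent of tested genes (horizontal axis) that rose (red) or fell (blue) with the combination (D+T) in the pooled comparison, for all 13785 genes, the 81 members and 7 lists of related genes, with the number tested in parentheses. Of the members 14.8% rose and 13.6% fell, beside 28.1% and 24.5% of all genes, while ribosomal, import and glycolysis genes were mostly lower, and 56.2% of fatty acid oxidation genes were higher.

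Drug effect and cell content were also read in the same fit. Of 9 tested ERK output genes 7 fell (77.8%, against 24.5% of all genes) and 1 rose (median −2.10). Etv4 stood at −3.29 ± 0.08 (adjusted p = 1.86e-09), and 4 of the 9 fell with the 3′ over 5′ covariate. Of 10 melanocyte genes 9 rose (90%, median 0.82), and of 9 leukocyte genes 7 rose (77.8%, median 1.18), against 28.1% of all genes. The leukocyte mean over its genes was 6.82 to 7.33 in vehicle tumours, 7.40 and 7.54 in control combination tumours and 7.55 to 8.85 in treated pmel-1 tumours. The part of these shifts in the changes of the oxidative phosphorylation genes was not tested.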

How the data were processed

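RNA of 13 SM1 tumours was hybridised to Affymetrix mouse arrays, per the labels' protocols. The deposited table holds log2 intensities of probe sets, which the authors made with RMA and affy per the submitters' processing notes, with versions not given in the sources used here. Of 45101 probe sets, 64 are controls, 34945 have 1 symbol, 932 several and 9160 none. The brightest probe set of each of 18193 symbols was kept, and 13785 genes above the 40th percentile (5.79) in at least 2 arrays were tested. With limma 3.58.1 (R 4.3.3), group means were fitted over all arrays (7 residual degrees of freedom), with Benjamini-Hochberg adjustment in each of 11 contrasts. The fit was tested on simulated data. The members and lists were chosen with earlier results of these data known. Named were Ppargc1a, Cycs and tissue isoforms, up to 3 called rises and 3 falls per complex, and from each list its first gene and up to 3 with the smallest p. Mrps28, Ndufab1, Ndufb11, Ndufv1, Atp5b, Atp5a1, Atp5c1, Sdhd, Esrra, Esrrg, Ppara and the marker genes given by array were named after their values were seen. Same-numbered replicates showed no steady shared deviation (23 pairs, correlations −0.46 to 0.45, 4 over 0.1). The highest was between replicate 2 of dabrafenib and of the pmel-1 combination. Deviations within a group of 2 arrays mirror each other, so the pairs are not independent. The number of arrays limits the precision.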

Additional observations from a re-analysis of the deposited data

Results flagged for a closer look

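In 4 genes every combination tumour lay above every vehicle tumour in control recipients and below every vehicle tumour in pmel-1 recipients. They are 4.94% of the 81 members, and 1.62% of all genes tested had this pattern (3.25% with the opposite one included). The pmel-1 change minus the control change was −0.41 for Atp5j and −0.52 for Atp5o, both of the stalk that holds the head of ATP synthase, −0.37 for Ndufv2, of the NADH-oxidising part of complex I, and −0.47 for Sdhb, the iron-sulfur subunit of complex II. The interaction test in limma did not pass for any of them (adjusted p = 0.2815, 0.2896, 0.2578 and 0.2492). Sdhb, for example, read 11.70 and 11.72 with vehicle and 12.09 and 11.83 with the combination in control recipients, and 11.95 and 11.90 against 11.65, 11.67 and 11.79 in pmel-1 recipients. The treated pmel-1 tumours have the higher 3′ over 5′ ratios given in the report, and the part of that in these differences was not tested.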

How the results depend on the processing

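The rises of Ppargc1a, Cox6b2 and Cox8b were called under all 24 alternatives in each comparison of a drug treatment with vehicle. Of 1224 alternative values of named changes called, 1111 stayed called in the same direction, 112 lost the call and 1 reversed, Atp5g1 in control recipients at 0.02 with all its probe sets averaged. Counts of changed members moved more. With the 3′ over 5′ covariate they were 15 in the pooled comparison, 5 for the combination in pmel-1 recipients, 4 for dabrafenib, 6 for trametinib and 0 for transfer among combination tumours. Among pmel-1 recipients that ratio and the drug cannot be told apart. With only the arrays compared they were 9 for dabrafenib, 1 for transfer among combination tumours and 1 for the interaction. With array weights 34 changed with trametinib, and with trend and robust moderation 29 did, and 4 with transfer among combination tumours. Without the 3 Adipoq-high arrays, chosen after seeing the data, dabrafenib gave 5, trametinib 9 and that transfer comparison 1. Replicate numbers were not used to pair the samples. With the replicate block dabrafenib gave 13 and transfer among combination tumours 0. Leaving out each array gave 16 to 28 (pooled), 12 to 29 (pmel-1), 6 to 12 (control), 5 to 25 (dabrafenib), 8 to 25 (trametinib), 0 to 11 (transfer among combination tumours) and 0 elsewhere. Scaling moved the split of trametinib from 7 higher and 12 lower to 12 and 6 after a second quantile normalization. The cause of these moves was not tested.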
